A study of Mus musculus with 32 samples.

Results

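Deletion of Nampt in inflamed chondrocytes was examined by comparing Nampt f/f (NAMPT flox) chondrocytes given Cre with the same cells given GFP, with IL-1b in both arms. The members are samples, namely the 2 libraries of Cre + IL-1b and the 2 of GFP + IL-1b, or 4 of the 32 libraries of the series, chosen by their genotype and treatment labels. All were primary chondrocytes from the sternum of C57BL/6 mice, grown without passaging. The study's methods describe isolation from the sterna and ribs of newborn pups of either sex, so that a library may hold cells of several pups. Cells were infected for 24 h with adenovirus, carrying eGFP alone in the GFP arm and Cre with eGFP in the Cre arm, and were then cultured for 24 h with IL-1b. The remaining libraries were Nampt f/f cells given either virus without IL-1b, Ldha f/f and Nfkbiz f/f cells handled in the same way, and 8 wild-type libraries without virus, which were untreated or given IL-1b, FX11 (an inhibitor of lactate dehydrogenase A) or both, with 2 libraries each. Both arms carried the floxed alleles, IL-1b and a virus. Cre was given to no chondrocytes without a floxed allele, so that the loss of Nampt and any effect of Cre itself cannot be told apart within the line.

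NAMPT catalyses the rate-limiting step of NAD salvage, in which nicotinamide is joined to phosphoribosyl pyrophosphate to give nicotinamide mononucleotide, and the NMNAT enzymes convert that product to NAD. NAD carries electrons for glycolysis and the citrate cycle, and it is consumed as a substrate by sirtuins, PARP enzymes and the ectoenzyme CD38. IL-1b is a cytokine that acts through NF-kB in cartilage, where it raises matrix-degrading proteases, cytokines and prostaglandin enzymes and lowers the synthesis of collagen and proteoglycan.

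The 4 libraries held between 15830658 and 33147423 counts. Each library is named by its numbered set, since the sample titles divide the series into 2 sets and every condition of the Nampt f/f line has 1 library in each. Levels below are CPM, the count relative to the library's total after scaling by TMM factors, and pairs of values are always given for set 1 and then set 2. CPM is not divided by gene length, so that it compares libraries and not genes. A gene was called when edgeR's quasi-likelihood test, with the set as a block, gave a Benjamini-Hochberg adjusted p of 0.05 or less. Log2 fold changes are Cre over GFP and carry standard errors. RNA came from whole cultures, so that fewer cells of a type and less RNA per cell cannot be told apart.

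Nampt (chr12:32820335-32853369 of GRCm38, plus strand) was lost in both Cre libraries. With IL-1b it stood at 69.9 and 72.0 CPM after GFP, from 1681 and 1108 counts. It stood at 6.05 and 4.88 CPM after Cre, from 213 and 111 counts. The Cre libraries lay far under the GFP libraries, with a log2 fold change of -3.68 ± 0.10 (adjusted p = 7.1e-27) and 7.70% of the GFP level remaining. Without IL-1b the level went from 61.1 and 56.2 CPM to 6.86 and 7.03 CPM, so that the labels fit the targeted gene in all 8 libraries of the line.

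Deletion under IL-1b was accompanied by change in many genes. Of 16136 genes tested, 9400 were called (58.3%), with 4704 higher (29.2%) and 4696 lower (29.1%) after Cre, and the median log2 fold change was -0.03. At least 2-fold changes were called for 1481 genes higher (9.18%) and 1403 lower (8.69%). Fewer were called without the block (7808), by DESeq2 (7976) or without the Cre + IL-1b library of set 1 (7821). In the fit, which takes out the difference between the sets, the common biological coefficient of variation was 0.0481, and counts of called members of any gene group are to be read against these shares.

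**Figure D1:**
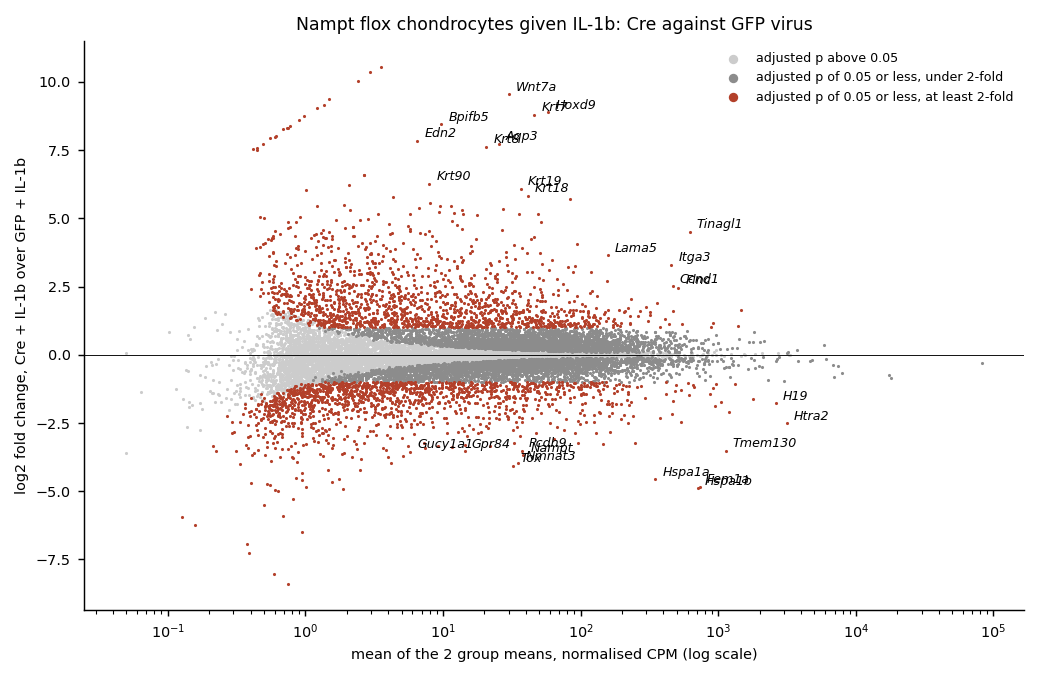
Each point is 1 of the 16136 genes tested. The horizontal axis is the mean level in CPM on a log scale, and the vertical axis the log2 fold change of Cre over GFP under IL-1b. Called genes of at least 2-fold are in red, other called genes in darker grey and genes not called in light grey. Nampt, at -3.68, lies among the largest falls, and the keratin genes and Wnt7a lie near the top, Wnt7a at 9.54.

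The largest rises were of genes close to absent from the GFP libraries. Wnt7a, a secreted Wnt ligand, had 2 and 1 counts after GFP with IL-1b and reached 58.7 and 61.7 CPM after Cre. Krt8 and Krt18 encode partner keratins of simple epithelia. Krt8 went from 0.166 and 0.260 CPM to 41.0 and 41.3 CPM, and Krt18 from 1.62 and 1.17 CPM to 84.7 and 77.3 CPM (log2 fold change 5.82 ± 0.13, adjusted p = 2.2e-28). Hoxd9, a homeobox transcription factor, went from 0.166 and 0.325 CPM to 86.9 and 145 CPM, and Aqp3, a water and glycerol channel, from 0.208 and 0.260 CPM to 46.9 and 54.3 CPM. In each of these genes both Cre libraries stood far above both GFP libraries, but genes were chosen here for arms that do not overlap and for large folds. Fitted folds of genes with 6 counts or fewer after GFP (Wnt7a, Krt7, Krt8, Krt90, Hoxd9, Aqp3, Bpifb5 and Edn2) depend on the prior count and are not read as sizes.

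The 5 rises with the smallest p were of Tinagl1, Itga3, Lama5, Ccnd1 and Flnc. Tinagl1, a matricellular protein of basement membranes, went from 54.1 and 50.1 CPM to 1147 and 1228 CPM, a log2 fold change of 4.50 ± 0.05 (adjusted p = 7.7e-38). Itga3, an integrin subunit that binds laminin, went from 83.3 and 85.2 CPM to 808 and 842 CPM, or 9.78-fold. Lama5, a laminin chain gene, rose 12.4-fold, and Lamb3, another laminin chain gene and a member of the epithelial list below, rose 16.8-fold, from 10.5 and 10.7 CPM to 176 and 182 CPM. In all 4 genes the 2 libraries of an arm differed far less than the arms did, which a choice by small p favours. Ccnd1, the cyclin of G1 phase, went from 132 and 147 CPM to 776 and 811 CPM, and Flnc, an actin crosslinker, from 148 and 169 CPM to 857 and 878 CPM.

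Several of the deepest falls were of genes that the GFP libraries held above the level of cells without virus. Hspa1b, an inducible heat shock chaperone, went from 1274 and 1462 CPM to 43.1 and 48.8 CPM, whereas the 8 wild-type libraries without virus, 4 of them given FX11, held 6.15 to 11.3 CPM (not scaled by TMM). These ranges hold all 8 regardless of their labels, since 1 wild-type library labelled IL-1b held Mmp3 at 0.747 CPM against 8802 CPM in the other and so goes against its label. Likewise, 1 wild-type library labelled FX11 without IL-1b held Mmp3 at 1907 CPM against 1.17 CPM in the other. Fem1a, a substrate receptor of a ubiquitin ligase, fell from 1187 and 1654 CPM to 47.2 and 50.2 CPM, with 41.1 to 57.4 CPM in wild type. Tmem130, a membrane protein, fell from 2031 and 2142 CPM to 182 and 180 CPM, with at most 0.512 CPM in wild type. For these genes the Cre level was thus nearer to the virus-free level than the GFP level was. Of the 10 largest falls, 6 had all 12 GFP-virus libraries of the 3 floxed lines above all 8 wild-type libraries, against 1 of the 10 largest rises. The same held for 217 of the 16136 genes tested (1.34%), for 56 of the 1403 genes at least 2-fold lower (3.99%) and for 27 of the 1481 at least 2-fold higher (1.82%). The sets of falls and rises were picked by fold change, which favours a high GFP level among falls and a low GFP level among rises. The contrasts between falls and rises thus follow in part from the choice. The part of the GFP virus in these falls was not tested.

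Falls of other kinds included Tox, an HMG-box transcription factor, which went from 57.0 and 65.0 CPM to 3.32 and 3.96 CPM (log2 fold change -4.07 ± 0.10), with 44.1 to 126 CPM in wild type. Gpr84, a receptor for medium-chain fatty acids, fell from 26.8 and 25.9 CPM to 1.99 and 2.64 CPM. H19, an imprinted noncoding RNA, fell from 3962 and 4157 CPM to 1152 and 1218 CPM (log2 fold change -1.78 ± 0.02). Tox shares its locus with an antisense gene, and reads of such pairs may not be separable, since the counting is not stated to use strand.

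Among genes of NAD synthesis, the other routes to NAD moved unevenly. Of 22 listed genes 13 were tested. Of these 4 were higher (30.8%) and 6, Nampt included, were lower (46.2%), with a median log2 fold change of 0.06. Among all genes 29.2% were higher and 29.1% lower. The 3 NMNAT genes, whose enzymes carry out the final step of salvage, went different ways. Nmnat1, the nuclear enzyme, rose from 5.78 and 4.55 CPM to 8.54 and 8.49 CPM (log2 fold change 0.70 ± 0.17, adjusted p = 6.5e-04). Nmnat2, the Golgi and cytosolic enzyme, rose from 2.29 and 2.79 CPM to 8.37 and 9.89 CPM (1.85 ± 0.25). Nmnat3, reported in mitochondria, fell from 51.8 and 80.8 CPM to 4.37 and 3.61 CPM (-3.98 ± 0.14). Nmnat3 is also 1 of the 6 genes above, because wild type held 1.44 to 7.03 CPM and the GFP libraries stood above that even without IL-1b, at 16.1 and 18.4 CPM.

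Genes for other NAD precursors and for the phosphorylation of NAD moved in both directions. Nmrk1, the kinase for nicotinamide riboside, went from 2.79 and 2.60 CPM to 4.77 and 4.13 CPM (log2 fold change 0.72 ± 0.24). Naprt, which starts NAD synthesis from nicotinic acid, rose by 0.63 ± 0.25 on the log2 scale (adjusted p = 0.0312), a call that was lost without the block (adjusted p = 0.0806) and without either of the 2 IL-1b libraries of set 1. Nt5e, the ectoenzyme CD73 that dephosphorylates extracellular nucleotides, fell from 170 and 166 CPM to 30.7 and 27.3 CPM (-2.53 ± 0.06). Nadk2, the mitochondrial NAD kinase, fell by 0.67 ± 0.10 on the log2 scale, and the cytosolic kinase Nadk had 0.06 ± 0.05 and was not called.

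**Figure D2:**
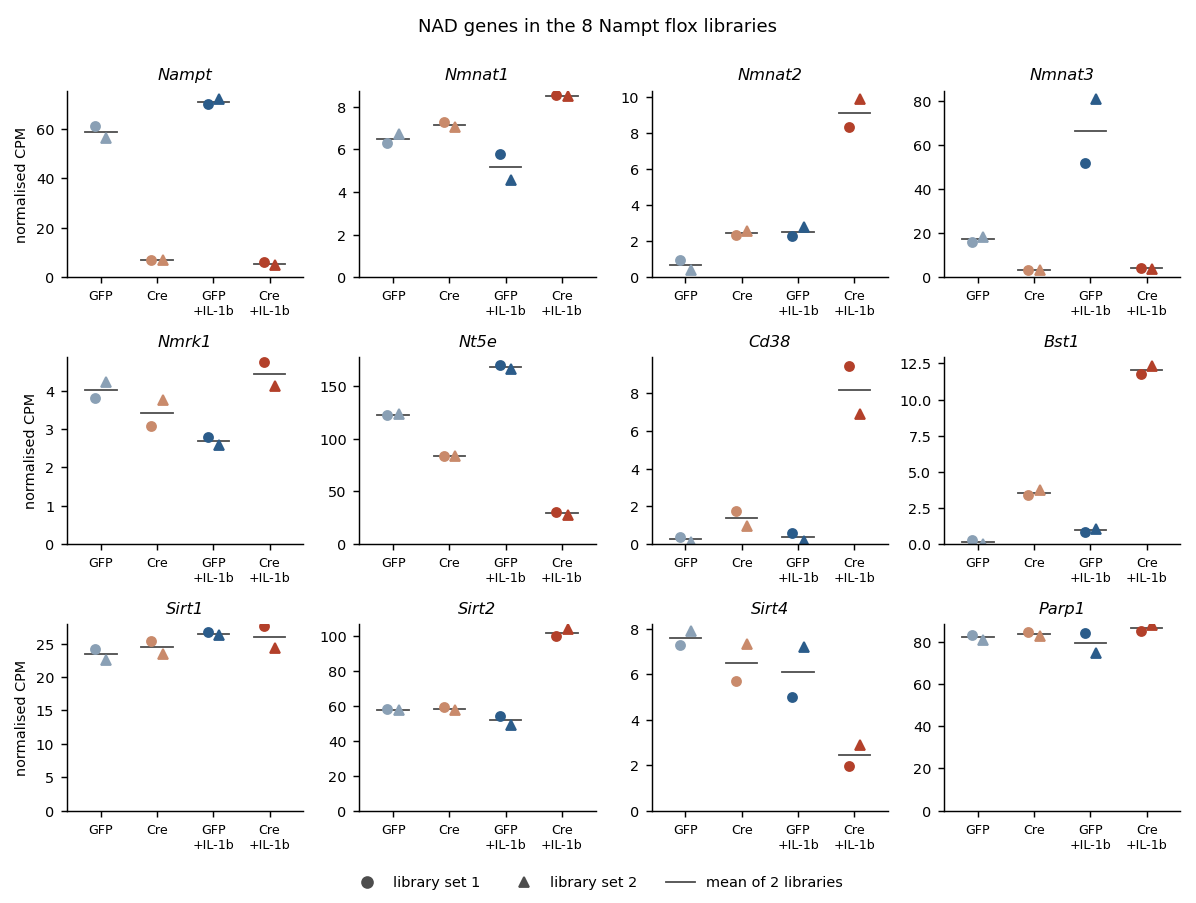
CPM (linear axis) of 12 genes of NAD metabolism in the 8 Nampt f/f libraries, 1 point per library, by virus and IL-1b. Nampt sits between 4.88 and 7.03 CPM in the 4 Cre libraries, whereas Cd38 and Bst1 are highest after Cre with IL-1b.

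Among enzymes that consume NAD, all 25 listed genes were tested, 8 were higher and 7 lower, and the median was -0.02, so that the group as a whole lay at the background. Of the 25, 1 exceeded 1 CPM in Cre libraries alone and so entered the test through the arm in which it was high. The ectoenzymes, low after GFP, stood out within the group. Cd38, which hydrolyses NAD, went from 0.583 and 0.130 CPM to 9.45 and 6.90 CPM (log2 fold change 4.45 ± 0.37, adjusted p = 9.5e-13), and its paralogue Bst1 from 0.832 and 1.04 CPM to 11.8 and 12.3 CPM (3.70 ± 0.28). Bst1 overlaps Fbxl5 on the other strand. Sirt2, the cytosolic deacetylase, rose 1.96-fold, from 54.1 and 49.2 CPM to 99.8 and 104 CPM, and overlaps Nfkbib. Sirt4, a mitochondrial sirtuin, fell from 4.99 and 7.21 CPM to 1.96 and 2.90 CPM (-1.33 ± 0.21). Sirt1 (26.7 and 26.3 CPM to 27.7 and 24.4 CPM, adjusted p = 0.884) and Parp1 (84.1 and 74.5 CPM to 85.0 and 87.7 CPM, adjusted p = 0.0804), the main nuclear deacetylase and poly-ADP-ribose polymerase, were not called.

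Proteases that cut cartilage matrix fell and rose in like numbers, and the chief collagenase and aggrecanase were among those that fell. Of 32 listed genes 30 were tested, 12 were higher (40.0%) and 11 lower (36.7%), with a median of -0.23. Among all genes 29.2% were higher and 29.1% lower. Mmp13, the principal collagenase of type II collagen, went from 213 and 211 CPM to 39.8 and 37.6 CPM (log2 fold change -2.45 ± 0.06, adjusted p = 3.7e-28). Mmp3, stromelysin, went from 913 and 893 CPM to 166 and 158 CPM (-2.48 ± 0.04), against 0.365 and 0.759 CPM after GFP without IL-1b. Adamts5, an aggrecanase, went from 62.2 and 56.4 CPM to 9.34 and 9.72 CPM (-2.65 ± 0.09). For all 3 the Cre libraries stood at 16.1% to 18.3% of the GFP level. Mmp3 nonetheless stayed far above its level without IL-1b, while Mmp13 ended below its level of 46.5 and 44.5 CPM after GFP without IL-1b. Mmp13 was itself lower after Cre without IL-1b, at 16.7 to 19.1 CPM, against 38.8 to 42.3 CPM after Cre with IL-1b (not scaled by TMM).

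Other proteases rose. Adamts4, another aggrecanase, went from 6.41 and 7.08 CPM to 19.8 and 19.4 CPM (log2 fold change 1.55 ± 0.14). Adamts7, which cleaves COMP, went from 14.6 and 12.8 CPM to 77.1 and 79.0 CPM, Htra1, a secreted serine protease, from 40.9 and 40.6 CPM to 198 and 191 CPM, and Mmp9, a gelatinase, from 7.12 and 5.65 CPM to 28.9 and 27.6 CPM. Of 9 inhibitor genes 8 were tested, 2 higher and 5 lower. Timp3, which inhibits aggrecanases, rose from 567 and 552 CPM to 1287 and 1241 CPM, whereas Timp1 fell from 433 and 414 CPM to 264 and 267 CPM.

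Cartilage matrix genes fell almost throughout. Of 29 listed genes 28 were tested, of which 23 were lower (82.1% against 29.1% of all genes) and 1 was higher, with a median log2 fold change of -0.84. Of the 28, 1 exceeded 1 CPM in GFP libraries alone. Hapln1, the link protein that ties aggrecan to hyaluronan, fell most among those named here, from 264 and 268 CPM to 28.8 and 25.8 CPM (-3.28 ± 0.05, adjusted p = 4.0e-34). Col11a1, of the fibril core, went from 2760 and 2611 CPM to 887 and 845 CPM, Dcn, the small proteoglycan decorin, from 293 and 278 CPM to 43.4 and 37.5 CPM, and Prg4, lubricin, from 107 and 124 CPM to 16.5 and 21.2 CPM. The 2 main matrix genes fell less, Col2a1 from 21695 and 21498 CPM to 13291 and 12828 CPM (-0.73 ± 0.02) and Acan from 1537 and 1581 CPM to 872 and 895 CPM (-0.82 ± 0.03). The single rise was of Matn4, a matrilin, from 10.0 and 10.8 CPM to 14.4 and 17.2 CPM.

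The transcription factors of the chondrocyte lineage did not move together. Sox9, the master factor, stood at 323 and 359 CPM after GFP and at 302 and 341 CPM after Cre (log2 fold change -0.08 ± 0.04, adjusted p = 0.0521). The fall of Sox9 did pass the threshold by edgeR with RLE scaling (adjusted p = 0.0468), by voomWithQualityWeights (0.0273), and without the GFP library of set 1 (0.0471), the GFP library of set 2 (0.00398) or the GFP + IL-1b library of set 1 (0.0297). Its partners Sox5 and Sox6 fell to 22.4% and 24.5% of the GFP level, Sox5 from 87.3 and 82.2 CPM to 20.2 and 17.8 CPM and Sox6 from 104 and 111 CPM to 27.0 and 25.8 CPM. Runx2, of hypertrophic maturation, fell by 0.71 ± 0.07 on the log2 scale. Of the 18 genes of this list, all tested, 2 were higher (11.1%) and 12 lower (66.7%), against 29.2% and 29.1% of all genes.

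**Figure D3:**
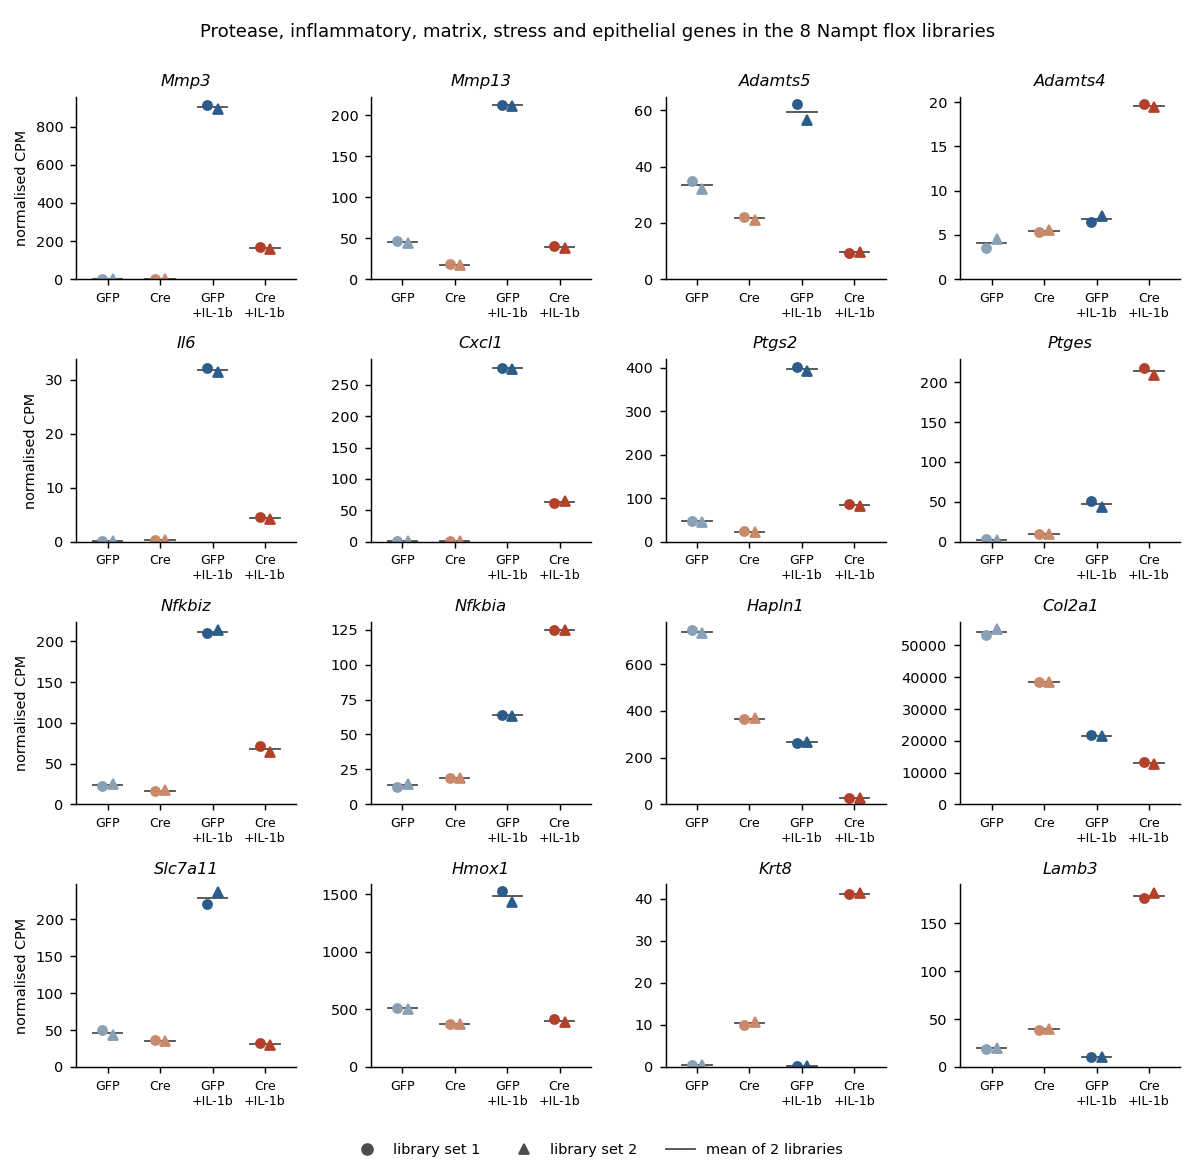
CPM (linear axis) of 16 genes of the protease, cytokine, matrix, oxidative stress and epithelial groups in the 8 Nampt f/f libraries, 1 point per library, by virus and IL-1b. Under IL-1b the Cre points of Mmp3, Mmp13, Adamts5, Il6 and Cxcl1 lie under the GFP points, and those of Adamts4, Ptges and Nfkbia lie above them.

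Cytokine and chemokine genes were more often lower than higher. Of 40 listed genes 30 were tested, 10 were higher (33.3%) and 17 lower (56.7%), with a median of -0.47. Among all genes 29.2% were higher and 29.1% lower. Of the 30, 1 exceeded 1 CPM in Cre libraries alone and 1 in GFP libraries alone, and each entered the test through that arm. Il6, the interleukin of the acute phase response, went from 32.2 and 31.4 CPM to 4.51 and 4.26 CPM (log2 fold change -2.85 ± 0.15, adjusted p = 4.9e-18). The neutrophil chemokine Cxcl1 went from 277 and 276 CPM to 61.8 and 64.1 CPM (-2.14 ± 0.06), and Cxcl3 fell by 2.56 ± 0.16 on the log2 scale. Others rose. Tnf went from 0.624 and 0.260 CPM to 6.98 and 7.43 CPM, Il11 from 4.08 and 3.64 CPM to 17.2 and 16.6 CPM, Cxcl16, a transmembrane chemokine, from 3.20 and 5.07 CPM to 28.4 and 27.4 CPM, and Ccl2, the monocyte chemokine, from 285 and 375 CPM to 476 and 649 CPM. In all of these the 2 arms did not overlap, which a choice by small p or after values were seen favours. Tnf lay under 1 CPM in both GFP + IL-1b libraries.

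Cxcl1 and Il6 hold a kappa-B motif close to their start sites, and their promoters are shown because NF-kB is the factor through which IL-1b acts on such genes. The sequences are the 250 bases before the start in RefSeq (GRCm38.p6), 5′ to 3′ on the gene's strand. Capitals mark the motif, GGGA followed by any base and TTTCC, which was searched on both strands. Cxcl1 lies at chr5:90890995-90891244 (plus strand), with its match 71 bases before the start, and Il6 at chr5:30012864-30013113 (plus strand), with its match 44 bases before it.
Cxcl1: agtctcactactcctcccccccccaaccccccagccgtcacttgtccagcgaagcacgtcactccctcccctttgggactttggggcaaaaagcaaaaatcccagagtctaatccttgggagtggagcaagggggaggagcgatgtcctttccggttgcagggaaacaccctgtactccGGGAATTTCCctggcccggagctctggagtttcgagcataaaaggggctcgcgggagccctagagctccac
Il6: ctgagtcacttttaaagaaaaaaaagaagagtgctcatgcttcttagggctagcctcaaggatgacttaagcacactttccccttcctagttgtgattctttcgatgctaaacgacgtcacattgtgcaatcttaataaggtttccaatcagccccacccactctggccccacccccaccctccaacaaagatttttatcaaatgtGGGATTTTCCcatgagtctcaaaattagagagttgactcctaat
The motif was found in such windows of 0.414% of 27025 genes and of 0.476% of the 11335 tested genes that have a window. Among genes that IL-1b raised at least 8-fold in the other floxed lines, 5 of 74 held it (6.76%). It was in 4 of the 44 of these that were lower after Cre and in 1 of the 11 that were higher (9.09% of each). A match is a description of the letters and not a bound site.

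Enzymes of the prostaglandin and nitric oxide pathways moved in both directions. Ptgs2, the inducible cyclooxygenase, went from 401 and 392 CPM to 86.9 and 81.8 CPM (log2 fold change -2.23 ± 0.05). Ptgs1, the constitutive cyclooxygenase, rose from 24.9 and 26.4 CPM to 136 and 129 CPM, and Ptges, the terminal prostaglandin E synthase, from 50.9 and 44.0 CPM to 218 and 209 CPM (2.17 ± 0.06). Nos2, the inducible nitric oxide synthase, fell from 48.2 and 51.9 CPM to 15.8 and 17.4 CPM. In their list, with acute phase genes, 21 of 25 were tested, 5 were higher (23.8%) and 14 lower (66.7%), with a median of -0.77. Among all genes 29.2% were higher and 29.1% lower. Lcn2, lipocalin 2, fell from 2941 and 3075 CPM to 1558 and 1612 CPM, Sod2, mitochondrial superoxide dismutase, from 355 and 358 CPM to 110 and 107 CPM, and C1ra, of the complement cascade, from 66.3 and 58.7 CPM to 15.1 and 14.7 CPM.

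Within the NF-kB pathway some genes fell and others rose. Of 35 listed genes 34 were tested, 15 were higher (44.1%) and 10 lower (29.4%), and the median was 0.02. Among all genes 29.2% were higher and 29.1% lower. Of the 34, 1 exceeded 1 CPM in GFP libraries alone and so entered the test through that arm. Il1r1, the signalling receptor of IL-1b, went from 70.6 and 68.4 CPM to 29.5 and 26.7 CPM (log2 fold change -1.31 ± 0.07, adjusted p = 4.6e-17). Nfkbiz, which encodes the nuclear co-activator IκB-ζ, went from 210 and 214 CPM to 71.8 and 64.1 CPM (-1.64 ± 0.06). Nfkbia, which encodes the inhibitor IκBα, rose from 64.0 and 63.5 CPM to 125 and 125 CPM (0.97 ± 0.06). Tnip1, Ikbke, Irak2 and Nfkbie rose by 1.14 to 1.33 on the log2 scale, and Relb by 0.56 ± 0.08.

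Genes that IL-1b itself raised most were lower after Cre in a larger share than all genes were. The classes were set by the response to IL-1b in the 8 GFP libraries of the Ldha f/f and Nfkbiz f/f lines, which share no library with the Cre comparison and in which 44.8% of 15452 genes were called, 22.1% raised and 22.7% lowered. Of 111 genes raised at least 8-fold there, 67 were lower after Nampt deletion (60.4%) and 16 higher (14.4%), with a median log2 fold change of -1.12. Among the 15116 genes in both tables, 30.2% were lower and 28.8% higher. At least 2-fold falls were called for 55 of the 111 (49.5%). The 3365 genes raised by IL-1b at any size lay nearer to the background, at 39.0% lower and 31.6% higher with a median of -0.08, and the 3462 that IL-1b lowered had 34.4% lower and 32.1% higher. Of the 84 that IL-1b lowered at least 4-fold, 29 were lower and 27 higher.

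Genes of the integrated stress response fell. This response, in which ATF4 is translated when eIF2α is phosphorylated, raises genes of amino acid synthesis and transport. All 45 listed genes were tested, of which 33 were lower (73.3% against 29.1% of all genes) and 5 higher (11.1%), with a median of -0.43. Atf4 went from 558 and 599 CPM to 312 and 338 CPM (log2 fold change -0.83 ± 0.04), and Asns, asparagine synthetase, from 237 and 237 CPM to 161 and 159 CPM (-0.57 ± 0.04). Slc7a11, the cystine transporter, fell most of those named, from 221 and 237 CPM to 33.0 and 29.5 CPM (-2.87 ± 0.06, adjusted p = 1.4e-28). Cth, of cysteine synthesis, went from 40.7 and 40.0 CPM to 8.17 and 8.31 CPM, and Pck2, mitochondrial phosphoenolpyruvate carboxykinase, from 143 and 152 CPM to 52.7 and 53.3 CPM. Chac1, a glutathione-degrading target of the response, was not called (81.4 and 105 CPM to 79.8 and 93.1 CPM, adjusted p = 0.108).

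The promoters of Asns and Slc7a11 are shown for the composite element that ATF4 and CHOP bind, whose letters TGATGNAA were searched on both strands and are in capitals. Both windows are the 250 bases before the start (RefSeq, GRCm38.p6), Asns at chr6:7693210-7693459 (minus strand) and Slc7a11 at chr3:50443614-50443863 (minus strand). Slc7a11 holds 2 matches, the second of them on the opposite strand.
Asns: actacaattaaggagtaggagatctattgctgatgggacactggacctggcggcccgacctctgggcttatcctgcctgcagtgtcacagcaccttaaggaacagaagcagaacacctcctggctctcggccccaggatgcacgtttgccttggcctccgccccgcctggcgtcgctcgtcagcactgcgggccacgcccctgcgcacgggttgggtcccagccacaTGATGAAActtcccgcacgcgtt
Slc7a11: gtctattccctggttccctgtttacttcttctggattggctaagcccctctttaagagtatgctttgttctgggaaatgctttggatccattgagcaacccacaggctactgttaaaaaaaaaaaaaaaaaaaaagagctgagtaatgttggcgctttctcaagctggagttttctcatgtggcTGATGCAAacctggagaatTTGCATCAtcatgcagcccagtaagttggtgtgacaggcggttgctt
The motif was in 29.7% of the 37 listed genes with a window and in 29.6% of the 27 of them that were lower after Cre. It was in 2.48% of the windows of all genes tested and in 3.91% of the windows of 27025 genes.

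Antioxidant genes fell with them. Of 38 listed targets of NRF2 and genes of glutathione metabolism 37 were tested, 10 were higher (27.0%) and 23 lower (62.2%), with a median of -0.39. Among all genes 29.2% were higher and 29.1% lower. Of the 37, 1 exceeded 1 CPM in Cre libraries alone and 2 in GFP libraries alone. Hmox1, haem oxygenase 1, went from 1529 and 1436 CPM to 415 and 389 CPM (log2 fold change -1.88 ± 0.04, adjusted p = 9.9e-31). Nqo1, an NADH- and NADPH-dependent quinone reductase, went from 97.6 and 101 CPM to 48.5 and 44.8 CPM, and Gclc, of glutathione synthesis, from 143 and 138 CPM to 75.7 and 71.6 CPM. Fth1, ferritin heavy chain, went from 8121 and 11475 CPM to 5150 and 7238 CPM, and its fall was alike in both sets although their levels differed.

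Genes of energy metabolism moved in both directions, where 29.2% of all genes were higher and 29.1% lower. Of 26 glycolytic genes 11 were higher (42.3%) and 10 lower (38.5%), with a median of 0.06. Ldha, lactate dehydrogenase A, which oxidises NADH, went from 1447 and 1370 CPM to 1162 and 1081 CPM (log2 fold change -0.33 ± 0.03), Slc16a1, a lactate transporter, from 328 and 322 CPM to 120 and 121 CPM (-1.44 ± 0.04), and Pfkfb4, which sets the level of an activator of glycolysis, from 5.28 and 6.10 CPM to 44.3 and 43.3 CPM (2.96 ± 0.12). Of 26 genes of the citrate cycle 15 were higher (57.7%) and 7 lower (26.9%), with a median of 0.23. Pdhb, a subunit of pyruvate dehydrogenase, rose from 32.0 and 27.9 CPM to 106 and 96.7 CPM (1.76 ± 0.07). Of 75 nuclear genes of the respiratory chain and ATP synthase 40 were higher (53.3%) and 3 lower (4.00%), all by less than 2-fold, with a median of 0.18. Without the block 26 were higher and 2 lower. Of 13 mitochondrially encoded subunits 9 were lower (69.2%) and none higher, with a median of -0.22. Among them mt-Co1 went from 5040 and 4947 CPM to 4572 and 4006 CPM. In the fit over the 24 floxed libraries the calls of mt-Co1 (adjusted p = 0.498), mt-Cytb (0.525) and mt-Nd5 (0.0583) were lost.

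Stress and growth lists also moved in both directions, and their shares are to be read against 29.2% higher and 29.1% lower among all genes. Of 33 p53 targets 21 were higher (63.6%) and 8 lower (24.2%). Cdkn1a, the cell cycle inhibitor p21, stood at 686 and 672 CPM after GFP and 1011 and 997 CPM after Cre. Pmaip1, the pro-apoptotic NOXA, stood at 7.24 and 7.47 CPM and then 23.6 and 25.5 CPM. Of 50 genes of DNA replication and mitosis 8 were higher (16.0%) and 20 lower (40.0%), with a median of -0.11. Of 20 chaperones of the endoplasmic reticulum 12 were higher (60.0%) and 2 lower (10.0%), although Hspa5, the chaperone BiP, was not called (909 and 906 CPM to 919 and 865 CPM). Of 25 genes of cholesterol synthesis 2 were higher (8.00%) and 12 lower (48.0%), and 1 of the 25 exceeded 1 CPM in GFP libraries alone. Of 24 genes induced by hypoxia 7 were higher (29.2%) and 11 lower (45.8%). Interferon-stimulated genes had 10 higher and 1 lower of 30 tested (41 listed), or 33.3% higher and 3.33% lower against 29.2% and 29.1% of all genes. Of these 30, 3 exceeded 1 CPM in Cre libraries alone and so entered the test through that arm. The pentose phosphate pathway had 4 higher and 2 lower of 8 tested (9 listed). The circadian clock had 6 higher (31.6%) and 9 lower (47.4%) of 19, with Per2 at 19.8 and 24.2 CPM and then 8.23 and 7.08 CPM.

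**Figure D4:**
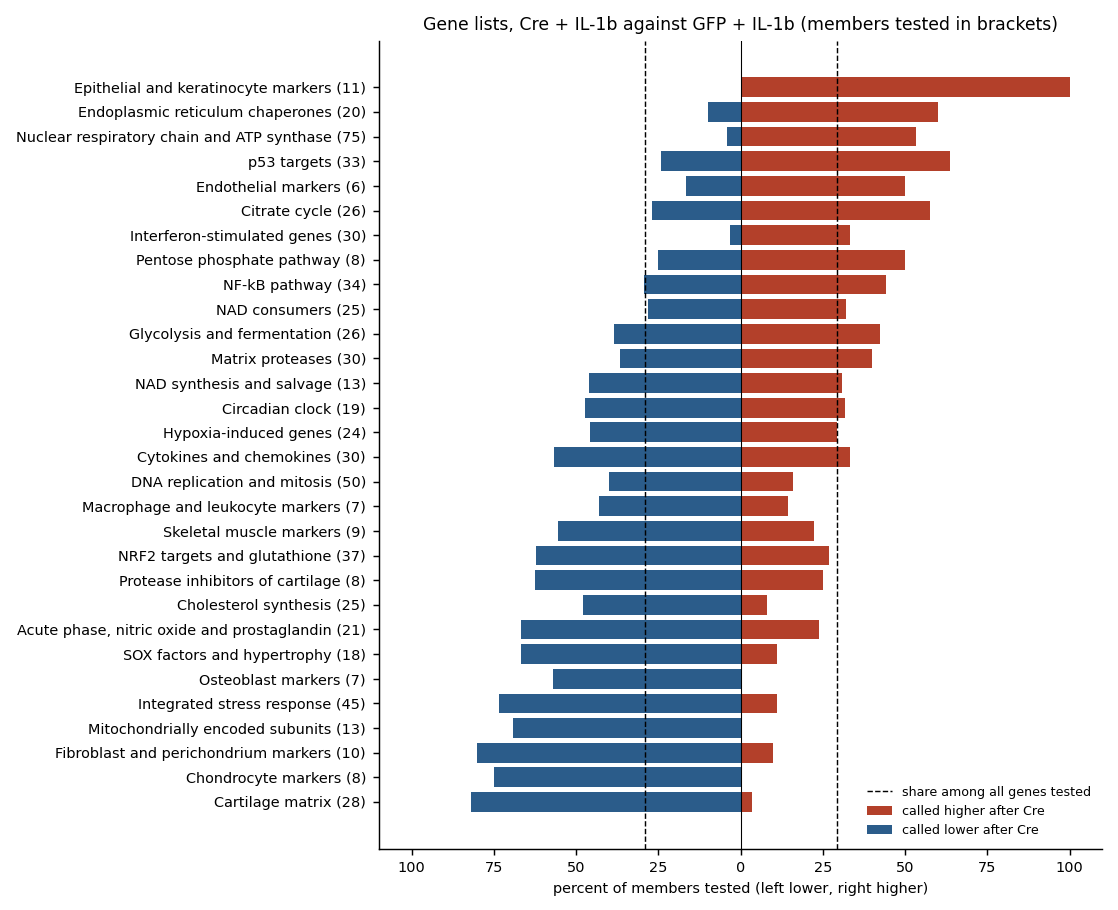
For each gene list, the percent of its tested members called lower (left) and higher (right) after Cre under IL-1b, with dashed lines at the 29.1% lower and 29.2% higher among all genes tested. Cartilage matrix, at 82.1% lower, and the integrated stress response, at 73.3% lower, lie far past the line, and all 11 tested epithelial markers were higher, 5 of which passed the filter in Cre libraries alone.

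Marker genes of the labelled cell type were present in every library and were lower after Cre. Of 8 chondrocyte markers 6 were lower (75.0% against 29.1% of all genes) and none higher. Their summed level went from 27853 and 27546 CPM to 16016 and 15539 CPM. Sox9 and Matn1 were the 2 not called. Fibroblast and perichondrium markers fell as well, with 8 of 10 tested lower (80.0%) and 1 higher (10.0%). Of these 10, 1 exceeded 1 CPM in Cre libraries alone. Their sum went from 4287 and 4382 CPM to 2684 and 2708 CPM. Osteoblast markers had 4 of 7 tested lower (57.1%), and 1 of the 7 exceeded 1 CPM in GFP libraries alone. Muscle markers had 5 of 9 lower (55.6%) and 2 higher (22.2%), with sums of 138 and 144 CPM after GFP and 91.6 and 94.7 CPM after Cre.

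Epithelial and keratinocyte markers were higher after Cre. All 11 that were tested of 13 were called higher, but 5 of them exceeded 1 CPM in Cre libraries alone and so entered the test through the arm in which they were high, and the count is a description. The summed level went from 37.2 and 40.1 CPM to 617 and 615 CPM. Krt14 and Krt15, keratins of the basal epidermis, did not pass the filter, and Krt5, their partner, went from 0.250 and 0.455 CPM to 5.90 and 6.11 CPM. Cdh1, E-cadherin, went from 0.832 and 0.520 CPM to 8.37 and 7.52 CPM, and Epcam from 0.791 and 0.649 CPM to 7.35 and 9.01 CPM. These levels move with every gene group above in the same 4 libraries, and their part in those results was not tested.

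Leukocyte and endothelial markers changed in single genes. The leukocyte genes Ptprc, Adgre1, Aif1, Tyrobp, C1qa, C1qb and C1qc did not pass the filter. Of the 7 markers tested 3 were lower (42.9%) and 1 was higher (14.3%), against 29.1% and 29.2% of all genes. The rise was of Cd74, the invariant chain of MHC class II, from 27.2 and 28.4 CPM to 92.4 and 93.7 CPM, and the list's sum went from 67.7 and 63.2 CPM to 117 and 118 CPM. Of 6 endothelial markers tested 3 were higher and 1 lower, with Kdr, a VEGF receptor, going from 1.96 and 2.08 CPM to 23.1 and 20.8 CPM and Pecam1 from 3.16 and 3.12 CPM to 0.908 and 0.967 CPM. Of these 6 markers, 1 exceeded 1 CPM in Cre libraries alone.

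The effect of Cre with IL-1b was tested against its effect without IL-1b, gene by gene. Without IL-1b, 4311 of 16136 genes were called (26.7%), with 13.2% higher and 13.5% lower after Cre. The effects differed for 5648 genes (35.0%), 3035 higher (18.8%) and 2613 lower (16.2%) with IL-1b, or for 3552 without the block. Adgrg6, an adhesion receptor, stood at 229 and 209 CPM after GFP and 235 and 213 CPM after Cre without IL-1b, but at 225 and 219 CPM and then 52.1 and 51.1 CPM with it, a difference of -2.14 ± 0.07 on the log2 scale (adjusted p = 1.3e-23). Tnfrsf11b, the decoy receptor osteoprotegerin, likewise stood at 71.1 and 66.1 CPM and then 74.7 and 66.0 CPM without IL-1b and went from 68.7 and 59.1 CPM to 7.92 and 8.79 CPM with it (-2.99 ± 0.11). Neither gene was called without IL-1b. Wfs1, a membrane protein of the endoplasmic reticulum, showed the same in the other direction, at 117 and 126 CPM and then 121 and 132 CPM without IL-1b and 85.7 and 96.6 CPM and then 346 and 401 CPM with it (1.97 ± 0.06).

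Other genes already moved without IL-1b and moved further with it. Hapln1 went from 745 and 732 CPM to 365 and 368 CPM without IL-1b (log2 fold change -1.01), with a difference between the effects of -2.27 ± 0.06. Lamb3 went from 19.0 and 19.4 CPM to 38.9 and 39.2 CPM without IL-1b (1.03), with a difference of 3.05 ± 0.10. The matrix gene Mgp and the gap junction gene Gja1 had differences of -1.97 and -1.96. The effect of Cre on Nampt RNA itself differed by -0.59 ± 0.14 (adjusted p = 0.00114), which does not measure how far the gene was deleted. In Ldha f/f, where Nampt is not floxed, Nampt with IL-1b stood at 75.0 to 87.5 CPM after GFP and 57.2 to 65.7 CPM after Cre (not scaled by TMM). Without IL-1b Nampt stood there at 57.6 to 58.1 CPM after GFP and 57.2 to 61.0 CPM after Cre. Among chondrocyte markers all 8 were lower after Cre without IL-1b, against 13.5% of all genes. Of the same 11 epithelial markers 9 were higher, against 13.2% of all genes.

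The same viruses given with IL-1b to Ldha f/f and Nfkbiz f/f cells set the change beside that after deletion of another gene. These lines share no library with the Nampt f/f line, and a fit over the 24 floxed libraries tested the difference between their Cre effects. Against Ldha f/f, 90 of 16727 genes differed (0.538%), 52 higher (0.311%) and 38 lower (0.227%), and 27 were called when only the 12 libraries with IL-1b were fitted and 23 without the block. Of the 1481 genes at least 2-fold higher after Nampt deletion, 98.9% were also above 0 in Ldha f/f and 83.0% were called higher there, where 38.4% of all genes were called and 17.8% were called higher, with median log2 fold changes of 1.69 and 1.38. Of the 1403 lower, 96.6% were below 0 in Ldha f/f and 70.0% were called lower, against 20.6% of all genes, with medians of -1.54 and -1.11. A difference between the lines was called for 37 of the former and 28 of the latter (2.50% and 2.00%). These counts rest in part on 1 library of another line, the second Nfkbiz f/f library of Cre + IL-1b, described below, which enters the fit through the shared estimate of spread. Without it 271 genes differed, 158 higher and 113 lower, among them 79 of the former and 77 of the latter (5.33% and 5.49%). A missed threshold does not show that the lines respond alike, and with 2 libraries an arm the standard error of a difference was 0.12 for Tnfrsf11b and 0.16 for Acan.

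The genes that did differ from Ldha f/f began with the targets. Nampt was lower in the Nampt f/f line by 3.17 ± 0.18 on the log2 scale, although it was also lower after Cre in Ldha f/f (-0.55), and Ldha was higher by 3.97 ± 0.10, since it fell by 4.33 in its own line. Its pseudogene Ldha-ps2 may share reads with Ldha and is uncertain. Beyond these, Tnfrsf11b fell by 2.98 in Nampt f/f and by 1.61 in Ldha f/f (difference -1.37 ± 0.12, adjusted p = 2.5e-07). Pappa, a protease that releases insulin-like growth factors, fell from 76.6 and 70.3 CPM to 14.8 and 15.0 CPM and differed by -0.89 ± 0.12. Unc5c, a netrin receptor, and Lpl, lipoprotein lipase, differed by -0.81 and -0.95. On the higher side were Kif1a, a kinesin (1.00 ± 0.15), Cd82, a tetraspanin (0.72 ± 0.11), and Fbxo2, a glycoprotein-binding F-box protein (1.27 ± 0.20). Slc7a11 (-0.59, adjusted p = 0.0101), Adamts7 (0.90, adjusted p = 0.0224) and Pdhb (0.63, adjusted p = 0.0279), named above, also differed, each in the direction of a larger change after Nampt deletion. Without the Nfkbiz f/f library, Lamb3 (0.70 ± 0.15, adjusted p = 0.0169), Sox6 (-0.48 ± 0.10, adjusted p = 0.0199), Sox5 (-0.46 ± 0.12, adjusted p = 0.0467) and Nt5e (-0.45 ± 0.10, adjusted p = 0.0212) were called different as well.

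Against Nfkbiz f/f, in which the deleted gene encodes IκB-ζ, 6067 genes differed (36.3%), 2950 higher (17.6%) and 3117 lower (18.6%). Both libraries of each Nfkbiz f/f condition came from set 2, so that this line has no library in set 1, and in that respect the line and the set cannot be told apart. The second library of Cre + IL-1b stands apart within the line, with 0.538% of its counts from mitochondrial genes against 1.39% to 2.19% in the other 7, and 11.9% from the gene Gm26917 against 5.14% to 8.48%. Without it 6192 genes differed, 3069 higher and 3123 lower, when the remaining library is taken to vary like those of the other groups. Without it the calls of Nmnat2 (adjusted p = 0.0936), Per2 (0.0539) and Msmo1, of cholesterol synthesis (0.0934), were lost, and mt-Co1 (-0.55, adjusted p = 0.0164), mt-Nd5 (-0.56, adjusted p = 0.0175) and mt-Nd6 (-0.50, adjusted p = 0.0291) were called lower in Nampt f/f. A difference was called for 63.3% of the genes at least 2-fold higher after Nampt deletion and for 66.1% of those lower, and the median log2 fold changes of these genes in Nfkbiz f/f were 0.33 and -0.18. Several matrix genes differed, with Hapln1 at -0.25 in Nfkbiz f/f (difference -3.07), Matn3, a matrilin, at 1.05 (-2.83) and Sulf1, a heparan sulfate sulfatase, at -0.20 (-2.90). Among IL-1b targets, Il6 and Cxcl1 fell further in Nfkbiz f/f, by 5.34 and 3.63, with differences of 2.46 and 1.47, whereas Mmp3 (0.17, adjusted p = 0.340) and Slc7a11 (-0.03, adjusted p = 0.881) were not called different. Ptges fell by 1.86 there and rose here, a difference of 4.00 ± 0.12 (adjusted p = 6.5e-17). Hspa1b, Fem1a, Nmnat3 and Htra2, which the GFP libraries held above wild type, fell in Nfkbiz f/f too, Hspa1b by 4.07, Fem1a by 4.05, Nmnat3 by 2.77 and Htra2 by 6.97, and Hspa1b, Fem1a and Nmnat3 fell in Ldha f/f by 4.56, 4.40 and 3.16.

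**Figure D5:**
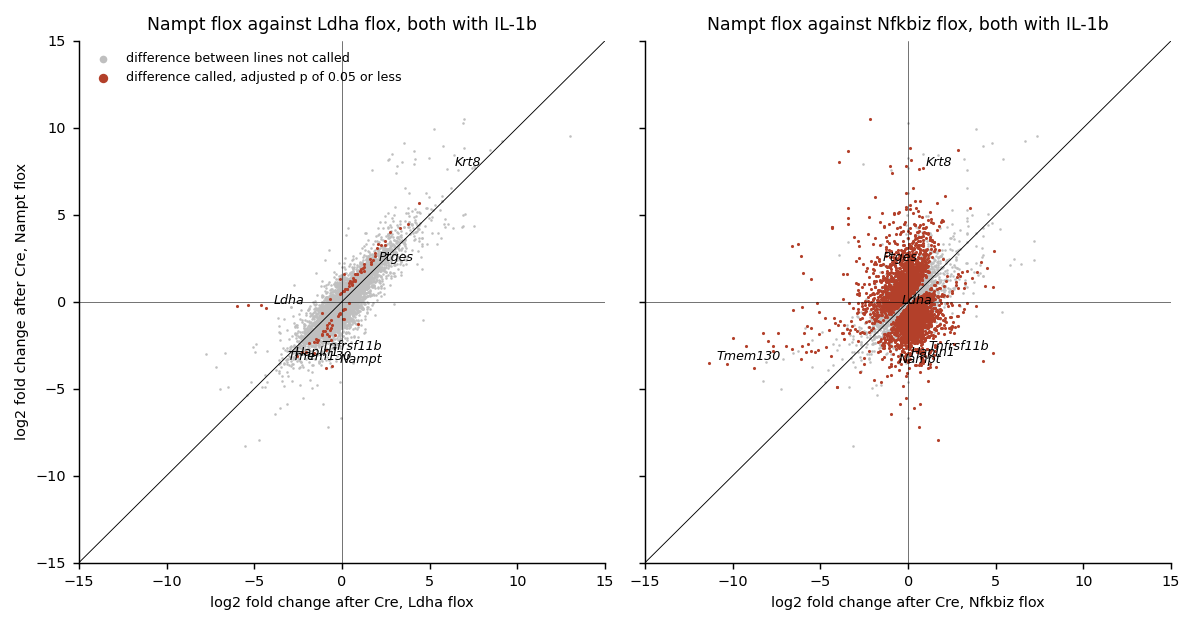
Log2 fold change of Cre over GFP under IL-1b in Nampt f/f cells (vertical) against that in Ldha f/f (left) and Nfkbiz f/f cells (right, horizontal axes), both from the fit over 24 libraries, 1 point per gene that was also tested in the Nampt f/f line, with genes whose difference was called in red. Points on the left follow the diagonal with few in red, of 90 genes called in all, and those on the right spread away from it, with 6067 called in all.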

How the data were processed

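Total RNA of primary sternal chondrocytes was depleted of ribosomal RNA and sequenced in 32 libraries. The authors aligned reads to GRCm38 (Ensembl release 76) with STAR, and featureCounts gave the deposited counts of uniquely aligned, unambiguous reads for 41388 genes, not normalized. The submitters' processing notes name STAR 2.0.4b and featureCounts 1.45, the strand setting is not given in the sources used here, and the deposited CPM and RPKM columns were not used.

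Counts were analysed with R 4.3.3 and edgeR 4.0.16, using TMM scaling and the quasi-likelihood test over the 8 Nampt f/f libraries in 4 groups with the library set as a block (3 residual degrees of freedom). Contrasts gave Cre against GFP with and without IL-1b and the difference between these effects. Comparisons with Ldha f/f and Nfkbiz f/f used the 24 floxed libraries. Tests were two-sided. The test took genes above 1 CPM in at least 1 library, without the 355 genes of ribosomal RNA, and GENCODE M21 named 40340 of the gene identifiers. The paper's methods name limma's voomWithQualityWeights, which was an alternative here, as were DESeq2 1.42.0, RLE scaling, other filters, other choices of libraries, no block and each library left out in turn (limma 3.58.1). On counts simulated for Nampt deletion under IL-1b, with 200 of 15170 genes changed 2-fold, 196 were recovered with 9 false calls. The changed genes were drawn from those with more counts, and every gene was given the same spread between libraries. No other effect of Cre or IL-1b was put in, whereas 58.3% of genes were called in the data. The recovery thus says nothing of genes with few counts or of so broad a change.

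In the Nampt f/f, Ldha f/f and wild-type samples, replicate numbers come from the 2 sets in the sample titles. In the Nfkbiz f/f samples a condition has 2 libraries of set 2, whose numbers follow sample order and pair nothing. Nampt f/f libraries of the same set deviated together, with correlations of 0.478 to 0.638 for the 6 pairs of conditions over 9661 genes, so that the sets pair the libraries. The labels do not say that libraries of a condition came from separate cultures or animals, and p-values then measure the spread between these libraries, which may be technical. Library totals of 15830658 or more place a count of 3 well under 1 CPM, so that for most genes the spread between 2 libraries and not depth limits the precision.

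The comparison and the gene lists were chosen with earlier results of these data known. Named genes were Nampt, the 10 genes with the largest change in each direction among called genes with a mean of at least 5 CPM, arms that do not overlap and a symbol other than a clone name, the 5 of these in each direction with the smallest p, up to 4 called members of each of 30 lists with the smallest p, 15 defining members whatever their values (Mmp3, Mmp13, Il6, Col2a1, Acan, Sox9, Nmnat1, Naprt, Sirt1, Parp1, Ldha, Hk2, Cdkn1a, Atf4 and Mki67), and the 5 genes in each direction with the smallest p in each test of a difference. Any other gene named was picked from its list after its values were seen.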

Additional observations from a re-analysis of the deposited data

Results flagged for a closer look

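Effects of Cre that a test found to differ between conditions or lines are gathered here as values of log2 differences, with no weighing of causes. With against without IL-1b, 5648 genes differed in the Nampt f/f line. Those with the smallest adjusted p (edgeR) were higher with IL-1b for Tinagl1 (2.53), Flnc (2.00), Lama5 (2.39) and Lamb3 (3.05) and for Wfs1 (1.97). They were lower for H19 (-1.18), Hapln1 (-2.27), Gja1 (-1.96), Adgrg6 (-2.14) and Mgp (-1.97).

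Against Ldha f/f under IL-1b, 90 genes differed. The effect was higher in Nampt f/f for Ldha (3.97), its pseudogene Ldha-ps2 (5.78, uncertain), Kif1a (1.00), Cd82 (0.72) and Fbxo2 (1.27), and lower for Nampt (-3.17), Tnfrsf11b (-1.37), Pappa (-0.89), Unc5c (-0.81) and Lpl (-0.95).

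Against Nfkbiz f/f, 6067 genes differed. The effect was higher in Nampt f/f for Tmem130 (7.81), Ptges (4.00), Chil1 (3.31), Htra2 (4.43) and Fam20c (2.54), and lower for Tnfrsf11b (-3.75), Npr3 (-4.14), Sulf1 (-2.90), Unc5c (-2.65) and Matn3 (-2.83). Tmem130 and Htra2 were among the genes that the GFP libraries of all 3 lines held above virus-free wild type, and Htra2 overlaps Aup1 and Loxl3 on the other strand.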

How the results depend on the processing

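The number of genes called under IL-1b was 9400 and stayed between 7808 and 9582 under the other tools, scalings, filters and choices of libraries, and between 7821 and 9437 with a library left out. With a 2-fold limit it was 2884. Of the calls, 7804 were made in the same direction without the block, 7976 by DESeq2 and 9302 by voomWithQualityWeights. The 5648 genes whose effect differed with IL-1b became 3552 without the replicate block, 4221 by DESeq2 and 4527 to 4986 with a library left out, the last chosen after seeing the data. The 90 genes that differed from Ldha f/f became 27 with the 12 IL-1b libraries alone, 23 without the block and 22 with a 2-fold limit, or 271 without the second Nfkbiz f/f library of Cre + IL-1b, and the 6067 that differed from Nfkbiz f/f became 2505 with that limit and 6192 without that library. Both settings were added after seeing the data. The count of nuclear respiratory chain genes called went from 43 to 28 without the block, and the other 119 list counts stayed within 1.5 times. Cause was not tested for any of these, apart from the fold limit, which by construction calls fewer. Of 2638 values of the 165 named genes, 2606 kept their direction and side of the threshold, 25 lost the call, 7 gained it and none reversed. The changes were in Cdh5, Cox5a, Egfl7, Fcer1g, Mki67, Naprt, Parp1, Phex, Sox9, Sp7, mt-Co1, mt-Cytb and mt-Nd5. The calls of mt-Co1, mt-Cytb and mt-Nd5 were lost in the fit over 24 libraries, and of the 7 gained calls 5 were of Sox9 and 2 of Parp1. With 2 libraries an arm, genes under a few CPM are the least certain.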

Other observations

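Col10a1, the collagen of hypertrophic chondrocytes, fell less after Cre with IL-1b than without it. It went from 672 and 569 CPM to 377 and 326 CPM without IL-1b (log2 fold change -0.82), and from 148 and 141 CPM to 137 and 124 CPM with it (-0.14, adjusted p = 0.00592 by edgeR), a difference of 0.68 ± 0.06 (adjusted p = 2.0e-11). It overlaps Nt5dc1 on the other strand. Sox9 behaved in the same direction, with -0.29 without IL-1b and a difference of 0.21 ± 0.05. Both genes were picked after their values were seen.

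Fem1a, Hspa1b and Tmem130, which stood above virus-free wild type in every GFP library, also differed between GFP libraries with and without IL-1b, which was not tested within this line. After GFP, Fem1a stood at 323 and 415 CPM without IL-1b and at 1187 and 1654 CPM with it, Hspa1b at 213 and 231 CPM and at 1274 and 1462 CPM, and Tmem130 at 520 and 606 CPM and at 2031 and 2142 CPM.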
